A study of Rattus norvegicus with 4 samples.

Results

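The genes described here form the Toll-like receptor and NF-kB signaling pathway, given as a list of 44 genes from receptors to NF-kB inhibitors and the inflammasome. A gene was found on the array when the name of a probe, without a trailing mark for a predicted or mapped gene, was that of the list. By this rule 35 of the 44 genes had 44 probes among the 41012 probes of the array. Tlr1, Tlr8, Tirap, Ticam1, Relb, Nfkbie, Tnfaip3, Nod1 and Nod2 had none. Of the 35, 25 had a probe bright enough to be tested among 22195 genes, that is, a probe that cleared background (the scanner's mark of being well above it) in 1 of the channels on 3 or more of the 4 arrays. The remaining 10 (Tlr4, Tlr5, Ly96, Lbp, Myd88, Ticam2, Irak2, Irak3, Irak4 and Chuk) are given as values without a test.

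The samples were cultured olfactory ensheathing cells (OECs), the glial cells that enclose olfactory axons, from male Fischer rats. Cells were sorted by flow cytometry into a p75High and a p75Low population, to a purity of 98% per the labels; p75 is the low-affinity neurotrophin receptor, encoded by Ngfr. The labels give 4 biological replicates of paired samples, with p75High in Cy5 and p75Low in Cy3 on 1 array each, and no array with the dyes exchanged. Each labelling took 250 ng of cDNA that had been amplified by PCR (the SuperAmp method). The labels name neither an age nor a treatment, and do not say whether replicates came from separate animals or cultures. The p-values therefore reflect only how much these samples vary, and part of that may be technical. Ratios are log2 of p75High over p75Low, so negative values are lower in p75High, and are means ± SD over 4 arrays unless another n is given.

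Toll-like receptors recognise molecules of microbes and of damaged cells, at the cell surface or in endosomes, with the help of co-receptors. The adaptors Myd88 and Ticam1 pass the signal to IRAK kinases, TRAF ubiquitin ligases and the kinase TAK1, and these activate the IkB kinase complex. That complex marks the IkB inhibitors for degradation, which frees NF-kB dimers to enter the nucleus and to switch on inflammatory genes and the genes of their own inhibitors. The pathway is best known in macrophages and microglia, and glia also carry parts of it.

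The ratios rest on single 60-base probes, and the results below turn on 7 of them. They are printed 5′ to 3′ with the rat rn4 coordinates of the array file, because genes with more than 1 probe gave unequal ratios. Their places within exons were not analysed here. Cd180 was read at chr2:33621031-33621090 (plus strand) and Cd14 at chr18:29375770-29375829 (minus strand). The probes of the NF-kB inhibitors were those of Nfkbia at chr6:75730438-75730497 (minus strand) and Nfkbib at chr1:83866200-83866259 (minus strand). The remaining probes were those of the subunit Nfkb1 at chr2:233091704-233091763 (minus strand) and of the inflammasome genes Nlrp3 at chr10:45873953-45874157 (plus strand) and Pycard at chr1:187276921-187276980 (minus strand). The sequence of Pycard is that of its less bright probe, which lies on the strand of the gene.
Cd180: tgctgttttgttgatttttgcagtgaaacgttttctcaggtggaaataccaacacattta
Cd14: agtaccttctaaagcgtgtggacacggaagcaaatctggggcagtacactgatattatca
Nfkbia: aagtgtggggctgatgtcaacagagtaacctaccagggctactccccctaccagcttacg
Nfkbib: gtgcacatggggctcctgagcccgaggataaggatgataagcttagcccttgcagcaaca
Nfkb1: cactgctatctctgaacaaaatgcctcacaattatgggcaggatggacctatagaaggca
Nlrp3: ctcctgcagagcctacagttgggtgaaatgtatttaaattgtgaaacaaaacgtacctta
Pycard: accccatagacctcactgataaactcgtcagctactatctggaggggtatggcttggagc

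The arrays were noisy at the level of single genes. The p75High channel had 22464 to 28062 probes well above background on an array, and the p75Low channel 23044 to 26174. The median SD per gene was 1.14, and the arrays correlated at 0.17 to 0.25 over genes, which do not count as replicates. Ngfr read 6.07, 6.17, 5.02 and 5.96 on replicates 1 to 4, in the direction of the sort on each array. Of 13 tested markers of OECs and Schwann lineage glia, Ngfr was the 1 past the threshold. The median was 0.35, single markers ran from -1.02 to 5.80, and 3 had a mean below 0. At an unadjusted p under 0.05 in limma, 3 were higher, Ngfr, Sox10 (4.56 ± 1.90) and S100b (3.75 ± 2.42), and 0 were lower. Each of the 13 was well above background in p75Low on at least 2 arrays. Markers of macrophages were measured as well: 14 of 20 listed microglia and macrophage markers were on the array, 13 were tested, and all 13 cleared background in both populations on every array. Their mean log2 intensity was 13.46 to 13.69 over the p75Low samples and 8.74 to 9.68 over the p75High samples. Of the 13, 8 were lower in p75High past the threshold, the median ratio was -4.56 and single markers ran from -6.11 to -1.25. None of the tested markers was absent from either population. Fewer cells of a type and less RNA per cell cannot be told apart in such samples.

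Across the pathway, the comparison asked which members differed between the sorted p75High and p75Low populations. Cd180, a lymphocyte and macrophage surface relative of the Toll-like receptors, was lower in p75High, and it was the only one of the 25 tested members to pass the threshold (limma, Benjamini-Hochberg adjusted p under 0.05). No member was higher past it, and 24 did not pass. Over all 22195 genes, 0.437% were lower past the threshold and 0.311% were higher. At an unadjusted p under 0.05, 10 members were lower and 1, Traf6, was higher, against 6.91% and 5.81% of all genes. Ratios were below 0 on every array for 10 of the 25 and above 0 on every measured array for 2 (13% and 12.8% of all genes). The median over the tested members was -1.34, beside -0.03 over all genes tested, and 20 of the 25 had a mean below 0.

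The filter on dim probes shaped that count. Tlr7, Ly86, Traf3, Nlrp3 and Casp1 passed it through the p75Low channel alone, so p75High cleared background on at most 2 arrays for each of them, which favours ratios below 0, and Map3k7 passed through the p75High channel alone. Tlr7, Ly86, Nlrp3 and Casp1 were among the members lower at an unadjusted p under 0.05. The 19 members bright enough in both channels had a median of -0.67, beside -0.06 over the 17664 genes kept in the same way. With no filter, the 35 members on the array had a median of -0.76 beside 0 over 35606 genes. Of the 35, 12 were then below 0 on all 4 arrays, beside 11% of all genes, and 1 was past the threshold, beside 0.146% of all genes. The tested macrophage markers were also lower in p75High on average, with a median of -4.59, -5.13, -4.98 and -4.89 on replicates 1 to 4. Their part in the result was not tested.

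**Figure D1:**
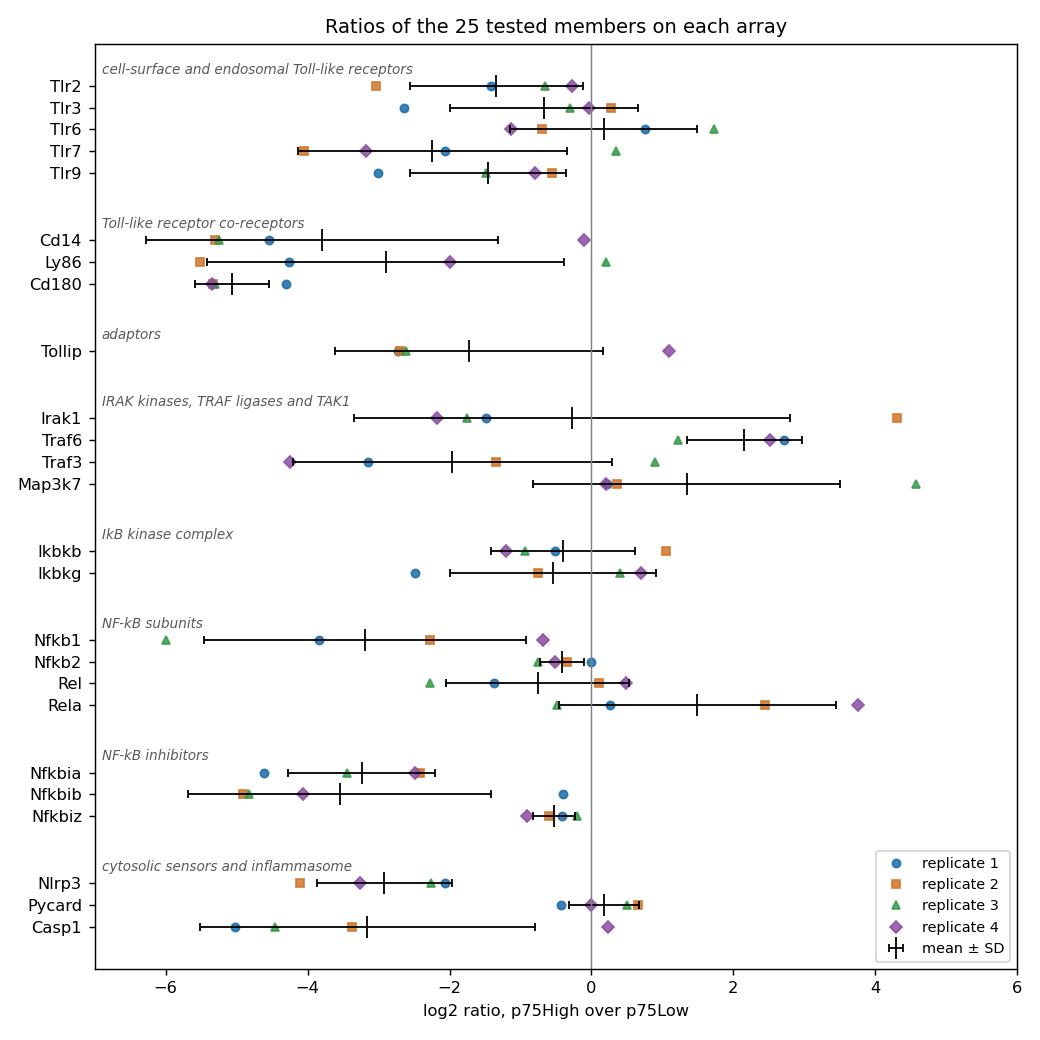
Log2 ratio of p75High over p75Low (horizontal axis) for each of the 25 tested members (rows, in order of role). Points are the 4 arrays, and the black tick with its bar is the mean ± SD. Cd180 sits between -5.35 and -4.30, while Irak1 spreads from -2.17 to 4.31.

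Among the co-receptors, Cd180 and Cd14 gave the lowest ratios of the pathway. The protein CD180 pairs with the secreted protein encoded by Ly86 and tunes the response to lipopolysaccharide. Cd180 had a log2 intensity of 6.51, 6.29, 5.88 and 8.80 in p75High and of 10.80, 11.63, 11.19 and 14.15 in p75Low, for replicates 1 to 4. The populations did not overlap, and replicate 4 was brighter than the others in both channels. The ratio was -5.07 ± 0.52 (SE 0.33, 95% interval -5.95 to -4.20), a 33.7-fold lower level in p75High, with -4.30, -5.34, -5.31 and -5.35 on the arrays (limma adjusted p = 0.0262). Without any 1 array the ratio stayed between -5.33 and -4.98, but the adjusted p was 0.0964 to 0.138, as 0 of all genes passed with 3 arrays.

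Cd14, the surface protein that hands lipopolysaccharide to the TLR4 complex, had ratios near those of Cd180 on 3 arrays and near 0 on replicate 4. Its log2 intensity was 8.43, 7.33, 7.75 and 7.80 in p75High and 12.97, 12.63, 13.00 and 7.91 in p75Low. The p75Low sample of replicate 4 lay within the p75High range, and the other 3 p75Low samples lay far above it. The ratio was -3.80 ± 2.48 (limma adjusted p = 0.304), and -5.03 without replicate 4 (adjusted p = 0.0964). A different probe of Cd14 read -4.02, -2.36, -5.92 and 0.53, with replicate 4 again the highest. In that p75Low sample of replicate 4 Cd180 was at its brightest.

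Ly86, the partner of Cd180, was not well above background in any p75High sample. Its p75Low log2 intensities were 10.39, 11.47, 5.91 and 8.58, with replicate 3 at the level of the p75High samples (5.96 to 6.58). The measured mean p75Low level was 7.45-fold higher than that of p75High, or 4.07-fold without replicate 2 and 15.2-fold without replicate 3. These are lower bounds for the dim p75High signal alone, not for the spread over arrays. The 95% interval of the log2 ratio was -5.65 to -0.14. The difference did not pass the threshold (limma adjusted p = 0.377). Ly86 was kept through p75Low alone, so these bounds do not count as support for a difference.

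**Figure D2:**
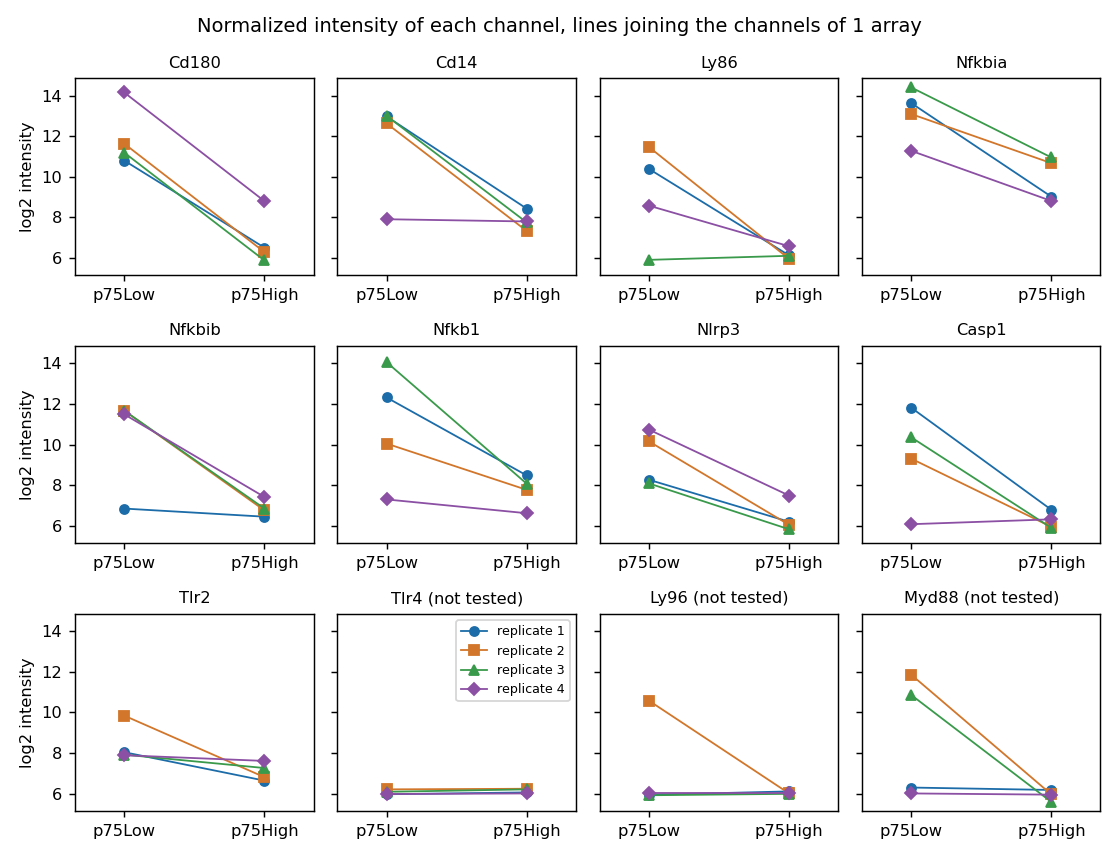
Normalised log2 intensity (vertical axis) of selected members in the p75High and the p75Low sample of each array, with a line joining the pair from 1 array. For Cd180 every line drops from p75Low to p75High, while for Cd14 the line of replicate 4 is flat, at 7.80 and 7.91.

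The receptors themselves showed no member past the threshold among the 5 tested (lowest adjusted p in limma 0.367, with 2 lower and 0 higher at an unadjusted p under 0.05). Tlr4, the receptor for lipopolysaccharide, was not well above background in any sample: its log2 intensities were 6.06, 6.24, 6.21 and 6.01 in p75High and 5.97, 6.21, 6.09 and 5.98 in p75Low. Its partner Ly96 had log2 intensities of 6.11, 6.01, 5.99 and 6.01 in p75High and of 5.94, 10.58, 5.92 and 6.01 in p75Low, with ratios of 0.16, -4.57, 0.07 and 0.01. It was well above background in 1 sample, the p75Low of replicate 2. The co-receptor gene Lbp was not well above background in any sample, and its ratio averaged -0.15 ± 0.06. Of the TLR4 complex, only Cd14 was therefore measured on all arrays.

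Tlr2, which recognises bacterial lipoproteins, and Tlr9, the endosomal receptor for unmethylated DNA, were below 0 on all 4 arrays. Tlr2 read -1.41, -3.03, -0.66 and -0.28, a mean of -1.34 ± 1.22 (limma adjusted p = 0.418). Its p75High intensities (6.64 to 7.61) lay below all of its p75Low intensities (7.89 to 9.84). Tlr9 read -3.01, -0.56, -1.49 and -0.80, a mean of -1.46 ± 1.1 (limma adjusted p = 0.367). Its populations overlapped, because the p75High sample of replicate 1 (8.16) exceeded the p75Low samples of replicates 2, 3 and 4 (7.32, 8.13 and 8.05).

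Tlr7, the endosomal receptor for single-stranded RNA, read -2.07, -4.05, 0.34 and -3.17 (mean -2.24 ± 1.90, limma adjusted p = 0.375). Its p75Low intensity in replicate 3 (6.09) lay at the p75High level, as that of Ly86 did. Tlr3, the receptor for double-stranded RNA, averaged -0.67 ± 1.33, which came from replicate 1 alone (-2.64). Tlr6, the partner of Tlr2, averaged 0.17 ± 1.32 with both signs among its arrays. Tlr5, the flagellin receptor, was too dim to test and read -4.28 on replicate 2 and between -0.17 and 0.02 on the others.

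The adaptors were poorly measured. Myd88, the adaptor of most Toll-like receptors, had p75Low log2 intensities of 6.30, 11.86, 10.86 and 6.01, so it was bright in 2 of the 4 p75Low samples. Its ratios were -0.12, -5.90, -5.26 and -0.06, and it was well above background on too few arrays to be tested. Tollip, which restrains IRAK kinases, read -2.72, -2.70, -2.61 and 1.09 (mean -1.73 ± 1.89, limma adjusted p = 0.453), and its other probe averaged -0.26 ± 1.48. Ticam2, the bridge from TLR4 to Ticam1, was not well above background in any sample, and its ratio averaged 0.06 ± 0.07.

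Of the IRAK kinases, TRAF ligases and TAK1, none of the 4 tested passed the threshold (lowest adjusted p in limma 0.296, with 0 lower and 1 higher at an unadjusted p under 0.05). Traf6, the ubiquitin ligase downstream of Myd88, had the highest ratio of the tested members, at 2.72, 1.22 and 2.51 (mean 2.15 ± 0.81, n = 3 arrays, 95% interval 0.75 to 3.55, adjusted p = 0.296). Its spot on replicate 2 was marked as an outlier by the scanner software and was left out. With TAK1, encoded by Map3k7, it was 1 of the 2 members above 0 on every measured array.

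The Map3k7 value rested on 1 array, with ratios of 0.22, 0.36, 4.58 and 0.21 (mean 1.34 ± 2.16, limma adjusted p = 0.567). Its probe was not well above background in any p75Low sample. The measured p75High level was 2.54-fold higher on average, or 1.2-fold without replicate 3. These are lower bounds for the dim p75Low signal alone, not for the spread over arrays. The 95% interval of the log2 ratio was -1.04 to 3.72, which includes 0. Map3k7 was kept through p75High alone, which favours a ratio above 0, so its value does not count as support for a difference. Its other probe averaged 0.23 ± 2.66. Irak1, a kinase recruited by Myd88, read 4.31 on replicate 2 and -2.17 to -1.48 on the others, and Traf3, a ligase of the interferon branch, averaged -1.96 ± 2.25 with 1 array above 0. Irak3, an inhibitory kinase of myeloid cells, had too few bright arrays to be tested. Its p75Low intensities were 12.61, 10.42, 5.95 and 6.0, again bright in 2 samples, but not in the same 2 as Myd88. Irak2 and Irak4, also too dim to test, averaged 0.17 ± 0.47 and 0.23 ± 0.24.

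The subunits of the IkB kinase complex and of NF-kB showed no common direction. Ikbkb, the catalytic kinase, averaged -0.40 ± 1.01 and Ikbkg, the scaffold also called NEMO, -0.54 ± 1.45, each with both signs among its arrays. Chuk, the other kinase, was too dim to test and read 3.07 on replicate 2 and 0.09 to 0.22 on the others. None of the 4 tested NF-kB subunits passed the threshold (lowest adjusted p in limma 0.321, with 1 lower and 0 higher at an unadjusted p under 0.05).

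Nfkb1, which encodes p105 and its product p50, had log2 intensities of 8.48, 7.77, 8.07 and 6.62 in p75High and of 12.32, 10.05, 14.06 and 7.30 in p75Low. It was below 0 on each array, by -3.84, -2.27, -5.99 and -0.68 (mean -3.19 ± 2.27, limma adjusted p = 0.321). Its other probe, spotted 10 times, averaged 0.15 ± 0.08, but was well above background in 1 p75High sample and in 0 p75Low samples. That probe therefore gave no level that could be set beside the first.

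Nfkb2, which encodes p100, was the most even of the subunits, with -0.01, -0.35, -0.76 and -0.52 (mean -0.41 ± 0.31, 95% interval -1.17 to 0.35, limma adjusted p = 0.58). Its other probe averaged 0.30 ± 0.37. Rel, the subunit c-Rel of lymphoid and myeloid cells, read -1.38, 0.11, -2.27 and 0.49 (mean -0.76 ± 1.29, adjusted p = 0.605). Rela, which encodes p65, read 0.26, 2.45, -0.48 and 3.75 (mean 1.49 ± 1.95, adjusted p = 0.509), while its other probe averaged -0.45 ± 1.14. These 3 genes had p75High and p75Low samples that overlapped, as did Nfkb1 through its p75Low sample of replicate 4 (7.30).

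By the probe that stood for each gene, the 3 tested inhibitors of NF-kB were below 0 on every array, as were 13% of all genes. None of them passed the threshold (lowest adjusted p in limma 0.108). At an unadjusted p under 0.05, 2 were lower and 0 higher, beside 6.91% and 5.81% of all genes. Nfkbia encodes IkB-alpha, the inhibitor that NF-kB itself induces. Its log2 intensity was 9.02, 10.67, 10.95 and 8.81 in p75High and 13.63, 13.09, 14.40 and 11.28 in p75Low. The lowest p75Low sample lay above the highest p75High sample. The ratio was -4.61, -2.42, -3.45 and -2.48 (mean -3.24 ± 1.03, 95% interval -4.53 to -1.95), a 9.45-fold ratio with an adjusted p of 0.108. The other probe of Nfkbia read 0.57, 0.38, -3.28 and -0.25, a mean of -0.64 ± 1.79.

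Nfkbib, which encodes IkB-beta, had p75Low intensities of 6.85, 11.67, 11.67 and 11.49 against 6.45, 6.76, 6.85 and 7.42 in p75High. Replicate 1 was level and the other 3 arrays were not, with ratios of -0.40, -4.91, -4.82 and -4.07 (mean -3.55 ± 2.13, limma adjusted p = 0.279). Nfkbiz, the nuclear inhibitor IkB-zeta, was even over the arrays, at -0.41, -0.60, -0.20 and -0.91 (mean -0.53 ± 0.30, 95% interval -1.28 to 0.22, adjusted p = 0.501). Its other probe was too dim to be used, at 0.35 ± 4.15.

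**Figure D3:**
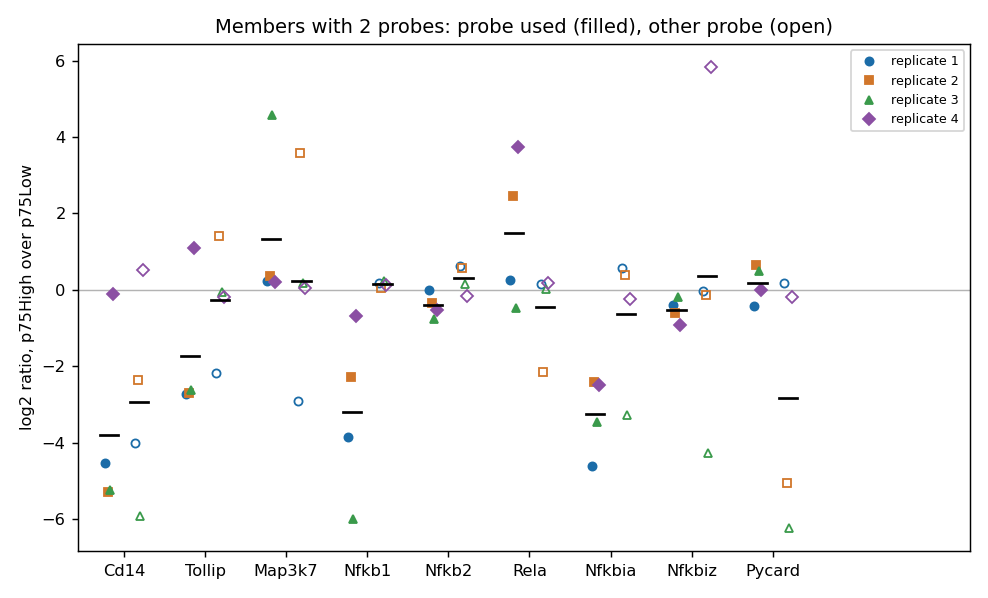
Log2 ratio of p75High over p75Low (vertical axis) on each of the 4 arrays for the members with 2 probes. Colours are replicates, filled points the probe that stood for the gene, open points the other probe, and black bars are means. The pairs lie far apart for Nfkbia (-3.24 and -0.64) and Pycard (0.18 and -2.83), while the other probes of Map3k7, Nfkb1 and Nfkbiz were too dim to be kept.

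Promoters of the NF-kB genes are shown because NF-kB is known to act on the genes of its own subunits and inhibitors. RefSeq windows of the GRCr8 assembly, from 250 bases before a gene's start to 50 after it, were found for 35 of the 44 listed genes (36 windows). They were searched on both strands for the kB consensus of NF-kB, for GAGGAAG, bound by the myeloid factor PU.1, and for TGANTCA, bound by AP-1. No match of 1 motif overlapped a match of another in the member windows, and a match describes letters and not a site in use. The kB consensus was in 11 of the 36 windows (30.6%), beside 4.18% of 33469 windows of the same length. It was in 4 of 5 inhibitor genes (Nfkbia, Nfkbie, Nfkbiz and Tnfaip3) and 3 of 4 subunit genes (Nfkb1, Nfkb2 and Rel), beside 1 of 9 receptor genes (Tlr2) and 0 of 2 co-receptor genes. Over the tested genes that held it, the mean ratio of the brightest kept probe ran from -3.24 for Nfkbia to -0.41 for Nfkb2. Between them were Nfkb1 (-3.19), Traf3 (-1.96), Tlr2 (-1.34), Rel (-0.76), Ikbkg (-0.54) and Nfkbiz (-0.53). The other probe of Nfkbia averaged -0.64. These values were not tested against each other. The 250 bases before the start are printed with each kB match in capitals, and with an AP-1 match of Nfkb2 (near its left end) in capitals too, for Nfkbia at chr6:78597073-78597322 (minus strand), Nfkb2 at chr1:255108124-255108373 (plus strand) and Rel at chr14:101921939-101922188 (minus strand). The kB match began 31 bases before the start in Nfkbia and 20 in Nfkb2, and Rel held overlapping matches that began 82 and 81 bases before it.
Nfkbia: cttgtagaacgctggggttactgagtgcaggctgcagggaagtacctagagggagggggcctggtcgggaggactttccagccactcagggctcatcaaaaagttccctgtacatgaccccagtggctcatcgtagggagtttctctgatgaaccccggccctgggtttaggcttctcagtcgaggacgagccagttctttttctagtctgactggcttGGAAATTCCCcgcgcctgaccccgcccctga
Nfkb2: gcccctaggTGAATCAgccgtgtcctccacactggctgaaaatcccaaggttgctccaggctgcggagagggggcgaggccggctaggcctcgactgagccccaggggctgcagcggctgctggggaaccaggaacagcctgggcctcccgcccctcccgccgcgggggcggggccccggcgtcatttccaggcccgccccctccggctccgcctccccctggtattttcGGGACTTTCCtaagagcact
Rel: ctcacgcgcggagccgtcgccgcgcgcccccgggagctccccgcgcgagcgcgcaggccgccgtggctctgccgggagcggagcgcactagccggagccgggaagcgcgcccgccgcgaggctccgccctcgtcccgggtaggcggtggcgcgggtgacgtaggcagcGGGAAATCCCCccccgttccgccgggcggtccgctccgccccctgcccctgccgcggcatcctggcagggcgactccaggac

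The PU.1 letters were in 7 member windows (19.4%), beside 12.4% of all windows, and the AP-1 letters in 5 (13.9%), beside 7.33%. Cd14 held the PU.1 letters at 140 and at 105 bases before its start, and Nlrp3 at 73. The window of Cd180 held none of the 3 motifs. Cd14 and Cd180 are printed because they gave the lowest ratios of the pathway, with PU.1 matches in capitals, for Cd14 at chr18:28611159-28611408 (minus strand) and Cd180 at chr2:35589680-35589929 (plus strand).
Cd14: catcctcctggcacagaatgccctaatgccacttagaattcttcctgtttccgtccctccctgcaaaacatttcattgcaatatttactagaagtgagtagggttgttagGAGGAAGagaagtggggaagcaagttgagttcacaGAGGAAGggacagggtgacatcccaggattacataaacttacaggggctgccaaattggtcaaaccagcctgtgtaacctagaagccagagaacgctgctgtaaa
Cd180: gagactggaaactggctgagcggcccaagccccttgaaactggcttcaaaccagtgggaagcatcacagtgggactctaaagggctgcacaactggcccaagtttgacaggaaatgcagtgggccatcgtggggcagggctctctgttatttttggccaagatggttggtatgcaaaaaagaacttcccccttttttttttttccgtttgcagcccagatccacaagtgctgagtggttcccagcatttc

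None of the 3 tested inflammasome genes passed the threshold (lowest adjusted p in limma 0.121, with 2 lower and 0 higher at an unadjusted p under 0.05). Nlrp3 is the sensor that assembles the inflammasome, and its value is the mean of 10 spots of 1 probe. Its log2 intensity was 6.20, 6.05, 5.83 and 7.49 in p75High, where 2 of 4 samples were well above background, and 8.27, 10.16, 8.09 and 10.74 in p75Low. The populations did not overlap. The ratio was -2.07, -4.11, -2.26 and -3.26 (mean -2.92 ± 0.95, 95% interval -4.13 to -1.71), with a limma adjusted p of 0.121. With the scanner's own ratios it was -5.18 (adjusted p = 0.0352), but Nlrp3 was kept through p75Low alone, so neither value counts as support for a difference.

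Casp1, the protease that the inflammasome activates, had p75Low intensities of 11.82, 9.31, 10.36 and 6.08, with replicate 4 at the p75High level (5.90 to 6.79). Its ratio was -3.16 ± 2.36 (limma adjusted p = 0.335). Pycard encodes the adaptor ASC that joins Nlrp3 to Casp1, and its probes differed. The brighter one, which stood for the gene, averaged 0.18 ± 0.49 (adjusted p = 0.824), and the file places it on the strand opposite to the gene. Probe and gene strands were the same for 95.2% of 9719 probes and for 35 of 37 member probes, with Chuk as the other exception. The Pycard probe on the gene's own strand read 0.18, -5.06, -6.23 and -0.20 (mean -2.83 ± 3.29), and the median over both probes was -1.32. The direction for Pycard thus depends on the probe.

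**Figure D4:**
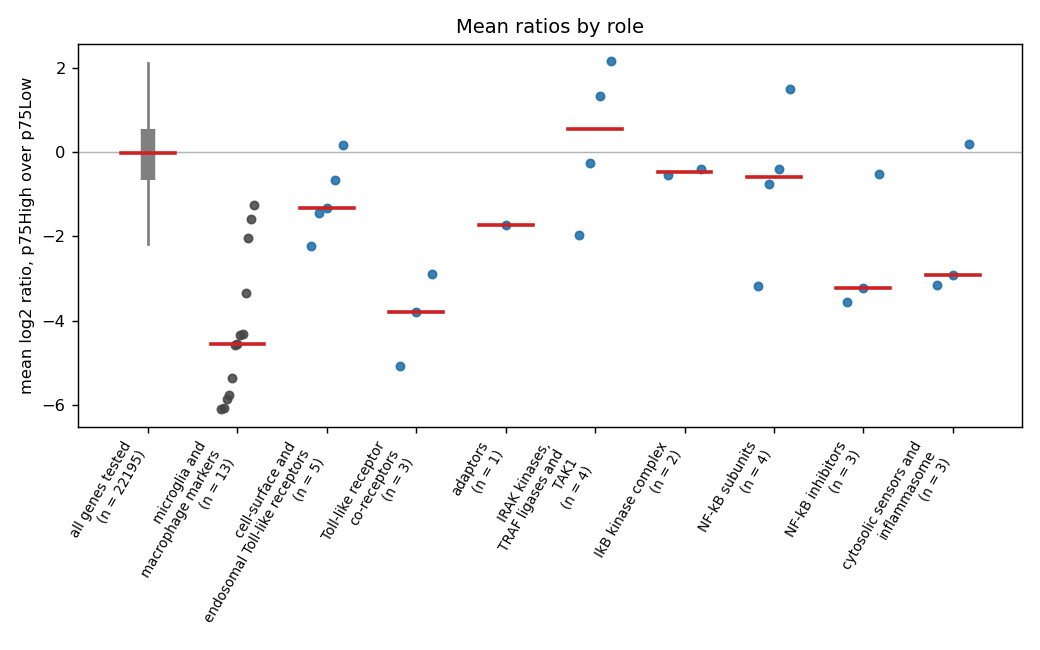
Mean log2 ratio of p75High over p75Low (vertical axis) of each tested member (points), in columns by role and with the macrophage markers beside them, with the median of each column as a red bar; all genes tested are drawn as a thick bar for the middle 50% and a thin one for the middle 90%. The medians are -3.80 for the co-receptors, -3.24 for the inhibitors and -2.92 for the sensors and inflammasome, against 0.54 for the IRAK, TRAF and TAK1 group.

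By role, the medians over tested members were -3.80 for 3 co-receptors, -3.24 for 3 inhibitors and -2.92 for 3 sensor and inflammasome genes. The last rests on Nlrp3 and Casp1, which passed the filter through p75Low alone, and it was -1.37 with the stricter filter and -4.76 with the scanner ratios. The median of the inhibitors was -1.94 with the median over probes, and that of the co-receptors was -5.82 with the scanner ratios. The medians were -1.34 for 5 receptors, -0.58 for 4 NF-kB subunits, -0.47 for 2 IkB kinase subunits and 0.54 for 4 IRAK, TRAF and TAK1 genes. The value of the IRAK, TRAF and TAK1 genes was -0.07 without replicate 2 and 1.66 with the scanner ratios. Replicates did not weigh equally in the pathway median, which was -2.07, -1.06, -0.76 and -0.68 on replicates 1 to 4.

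The evenness of the members over the samples is given as a description. The range of the log2 intensity over the 4 arrays had a median of 2.90 in p75Low and 1.46 in p75High for the 25 members, and 1.61 and 1.69 for all genes. In p75Low, 12 of the 25 members ranged by more than 3, as did 28.8% of all genes, and in p75High 4 did, as did 29% of all genes. Of those 12 members, Tlr7, Ly86, Traf3 and Casp1 had passed the filter through p75Low alone and cleared background in at most 2 p75High samples each. For the 19 members bright enough in both channels, the median range was 2.54 in p75Low and 1.52 in p75High. It was 1.68 and 1.76 for the 17664 genes kept in the same way. Of the 19, 8 ranged by more than 3 in p75Low and 3 in p75High, beside 28.5% and 29.1% of those genes. For the 13 macrophage markers the median range was 2.24 in p75Low and 1.63 in p75High. Members low in 1 p75Low sample were not all low in the same one, though several shared a sample. It was replicate 1 for Nfkbib, replicate 3 for Ly86, Tlr7 and Traf3, and replicate 4 for Cd14, Casp1, Nfkb1 and Tollip.

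Other genes of the pathway and the targets of NF-kB were taken from lists. Of 40 other pathway genes, 23 were on the array and 20 were tested. In limma 0 passed in either direction, and the median was -0.79. At an unadjusted p under 0.05, 2 were lower and 1 higher, beside 6.91% and 5.81% of all genes. The smallest p was that of Tlr10, a receptor related to Tlr1 and Tlr6, at -3.52, -3.06, -2.83 and -4.44 (mean -3.46 ± 0.71, an 11-fold ratio, adjusted p = 0.0528). Its p75High intensities of 6.50 to 8.07 lay below its p75Low intensities of 9.56 to 12.39. Ripk1, a kinase of cell death and NF-kB signaling, read 2.95, 4.82, 4.73 and -0.03 (mean 3.12 ± 2.27, adjusted p = 0.326). It was the 1 gene higher at an unadjusted p under 0.05. Ripk1 passed the filter through p75High alone, which favours a ratio above 0, so its value does not count as support for a difference.

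Of 24 NF-kB target genes, 21 were on the array and 11 were tested. In limma 0 passed in either direction, and the median was -0.53, or 0.02 with no filter on dim probes. At an unadjusted p under 0.05, 3 were lower and 0 higher, beside 6.91% and 5.81% of all genes. Of those 3, Sod2 passed the filter through p75Low alone, which favours a ratio below 0. Il1b, the cytokine that Casp1 matures, read -4.81, -6.16, -2.96 and -5.31 (mean -4.81 ± 1.36, adjusted p = 0.0676). Its p75High intensities of 6.94 to 9.69 did not reach the lowest p75Low value of 9.89. A different probe of Il1b, spotted 10 times, averaged -1.75 ± 1.78. Ccl4, a chemokine of activated macrophages, read -5.35, -0.18, -6.69 and -4.49 (mean -4.18 ± 2.82, adjusted p = 0.31), with replicate 2 near 0.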

How the data were processed

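Gene expression was measured on 4 two-channel Agilent rat arrays of design 014879, 1 for each replicate. The deposited intensity values are, per the file headers, mean spot and median background brightness without normalization, read with Feature Extraction 10.5.1.1 (10.5 per the submitters' processing notes). The scanner files also hold deposited log10 ratios (Cy5 over Cy3), which per the file headers come from background-subtracted and dye-normalized signals, and the authors' value table held the same numbers (maximum difference 0). The spot flags for outliers and for signal well above background were also deposited. The genome build of the probe coordinates is rn4, per the file headers.

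From these, intensities went through normexp background correction (offset 50) and within-array loess (span 0.3) in limma 3.58.1 under R 4.3.3, with the 1639 control spots at weight 0. Of 173516 readings of 43379 gene spots, 1112 (0.64%) marked as outliers were left out, and 0 were saturated. Repeat spots were averaged, and 24872 of 41012 probes were kept by the rule in the first paragraph. Each gene took its brightest kept probe. Ratios were tested against 0 with lmFit and eBayes, two-sided, with Benjamini-Hochberg adjustment over all 22195 genes at 0.05. Where a population was below background on every array, its mean level, or the lowest signal well above background where higher, gave the bound. Such a bound allows for the dim signal and not for the spread over arrays. Figures were drawn with matplotlib 3.10.9 in Python 3.11.15.

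Full values per array are given for members past the threshold, for those with an absolute mean above 1 and 1 sign on all arrays, and for the TLR4 complex and the NF-kB subunits. From each of the other lists, the 2 genes with the smallest p are given. Values of other members are given as summaries or where arrays or probes diverged, which was seen in the data. The members and lists were chosen with earlier results of these data known.

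The channels of 1 array are a pair per the labels. After removal of population means, their correlation across genes was 0.12, 0.06, 0.06 and 0.26 on replicates 1 to 4, and the highest with another array was 0.05. The 4 arrays lay on 1 slide, so no batch by slide could be tested. Alternatives covered background correction, normalization, filters, probe choice, names, pairing and each array left out. In simulated data for p75High against p75Low on 22081 genes, where 50 genes were changed at each size, the fit found 0 at 2-fold, 0 at 4-fold, 14 at 16-fold and 27 at 64-fold, and it called 1 unchanged gene. The number of arrays limits the precision.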

Additional observations from a re-analysis of the deposited data

Results flagged for a closer look

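In 5 of 32 sets of 4 array values examined, 1 array stood apart from the other 3 by a Dixon test at the 95% level. The nominal rate of that test is about 1 in 20, for independent sets of normally spread values. The sets included medians over the same members, so they were not independent. The share over all genes was not computed, so the count is not a result about the pathway. Cd14 read -0.11 on replicate 4 and -5.30 to -4.54 on the others. Tollip read 1.09 on replicate 4 and -2.72 to -2.61 on the others. Irak1 read 4.31 on replicate 2 and -2.17 to -1.48 on the others. Map3k7 read 4.58 on replicate 3 and 0.21 to 0.36 on the others. Cd180 read -4.30 on replicate 1 and -5.35 to -5.31 on the others, a gap of about 1 on the log2 scale in a gene lower on every array.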

How the results depend on the processing

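In a fit with no replicate block, which leaves the pairing of channels out, 163 genes were lower and 153 higher, beside 97 and 69 in the paired fit, and Cd180 was still the 1 member called. With the scanner ratios 154 were lower and 113 higher, and 2 members were lower, Cd180 (-6.47, adjusted p = 0.0293) and Nlrp3 (-5.18, adjusted p = 0.0352), which the filter had kept through p75Low alone. With no filter on dim probes 52 were lower and 37 higher. Leaving out 1 array gave 0 to 0 genes lower, 0 to 0 higher and 0 to 0 members lower in limma, with 1022 to 1222 genes lower and 809 to 1155 higher at an unadjusted p under 0.05. Cd180 was negative in all 13 settings, from -6.47 to -4.84. The median over all members was -0.65 with the stricter filter, which tested 20 members. Signs turned for Pycard (-1.32 with the median over probes), Tlr6 (-0.35 to 0.60 without 1 array, below 0 without replicate 1 or 3, at -0.03 and -0.35), Irak1 (-1.80 to 0.36, above 0 without replicate 1, 3 or 4, at 0.13, 0.22 and 0.36) and Ikbkg (-0.95 to 0.11, above 0 without replicate 1). Median centring moved the median of all genes from -0.03 to 0.13 and that of the members to -1.11. Updated gene names added a probe named Card15 in the file as Nod2 (0.03 ± 0.17, too dim to test) and one named Slc35b2 as Nfkbie (-1.95 ± 3.06), and Cd180 stayed the 1 member called. The genes too dim to test, Tlr4 among them, had no level that these arrays could compare.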
